A study of Mus musculus with 16 samples.

Results

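The cadherins outside desmosomes were followed through the ectoderm and the mesoderm of the growing mouse forelimb tip. Members were the genes of the deposited count table whose symbol is Cdh, Pcdh, Celsr, Fat or Dchs followed by a number, so that desmosomal cadherins and the clustered protocadherins, which carry other names, stood outside. Of 43 such genes, the 2 endothelial ones (Cdh5 and Pcdh12) were left out, which gave 41 members among 53800 genes. A filter on low counts kept 33 of the 41 for testing, among 15501 tested genes of 28342 with any count. Another 7 members had counts but did not pass the filter, and 1, Cdh16, had no count in any library.

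Cadherins are calcium-dependent adhesion proteins of the cell surface. Classical cadherins bind the same or a related cadherin on the neighbouring cell and hold beta-catenin and p120-catenin inside. Of these, beta-catenin takes part in the tie of the junction to actin. E-cadherin (Cdh1) and P-cadherin (Cdh3) are known from epithelia, N-cadherin (Cdh2) and the type II cadherin Cdh11 from mesenchyme. Celsr proteins belong to the core of planar cell polarity, which orients cells within a sheet, and the giant Fat and Dachsous cadherins bind each other across cells and act in polarity and growth control.

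The tissue was the distal 150 µm of forelimbs of B6 mouse embryos. It was kept in 0.25 percent trypsin for 20 min on ice, after which the ectoderm (the epithelium that covers the bud, with its apical ridge) was lifted off the mesoderm by forceps. There were 8 groups of 2 libraries of polyadenylated RNA, ectoderm and mesoderm at 4 daily stages between E9.5 and E12.5, all from animals of this strain with no treatment or mutation named in the labels. At each stage the replicate 1 libraries of both layers came from 1 batch of embryos and the replicate 2 libraries from another, and replicate 1 and replicate 2 RNA was extracted with different kits. The tip was cut afresh at each stage, so stages compare the tissue at the tip, not the same cells.

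The sequences that part the classical members into types stand in the first cadherin repeat. The stretches below are the coding letters, 5′ to 3′, of 8 codons of that repeat from GENCODE M21 transcripts (mm10). Capitals mark the 3 codons at the place where type I cadherins are known to carry histidine, alanine and valine. They are shown because the layers differed in which type made up most of their classical cadherin RNA. Cdh3 had the highest mean FPKM of type I in both layers and Cdh11 that of type II in mesoderm. In ectoderm the Cdh11 mean (10.3 FPKM) rested on 1 library and its median (5.29 FPKM) was below that of Cdh24 (8.40 FPKM). The other genes were added after their values were seen.
Cdh1, type I, chr8:106653914-106656841, plus strand, across 2 exons: tacatcctctattctCATGCCGTG
Cdh3, type I, chr8:106536966-106537091, plus strand, across 2 exons: tacgagctttatggcCACGCTGTA
Cdh4, type I, chr2:179843119-179847237, plus strand, across 2 exons: taccatctccgagccCACGCGGTG
Cdh11, type II, chr8:102673942-102673965, minus strand, within 1 exon: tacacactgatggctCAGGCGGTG
Cdh6, type II, chr15:13064410-13064433, minus strand, within 1 exon: tacatccttcgagctCAAGCTGTC
Cdh24, type II, chr14:54639001-54639024, minus strand, within 1 exon: tatgtgctgctggccCAAGCTGTG
The first capital codon was CAT or CAC, for histidine, in the type I genes and CAG or CAA, for glutamine, in the type II genes. The other capital codons encode alanine and valine in all 6.

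Total gene counts ran from 10005867 to 24156846 in ectoderm libraries and from 13757502 to 30438214 in mesoderm libraries. All 10 surface epithelium markers were called higher in ectoderm, with a summed level of 2125 to 6490 CPM (counts per 1000000 counts) against 5.92 to 77.5 CPM in mesoderm. Limb mesenchyme markers summed to 510 to 1532 CPM in ectoderm, against 2224 to 6173 in mesoderm, and 10 of 11 were called lower in ectoderm. Within embryo batches the ectoderm sum was 10.98 to 44.6 percent of the mesoderm sum, highest in E11.5 replicate 1, so ectoderm libraries carried RNA of these genes too. The sum is not specific to mesenchyme. Pdgfra had 56.7 to 491 CPM in ectoderm against 178 to 457 in mesoderm, and Msx1 156 to 312 against 216 to 1315. Prrx1 was better parted, with 19.4 to 118 CPM against 410 to 637. Endothelial markers summed to 3.77 to 33.9 CPM in ectoderm, against 389 to 725 in mesoderm, and all 10 were called lower. In bulk tissue, fewer cells of a type and less RNA per cell cannot be told apart.

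Averaged over the 4 stages, 23 of the 33 tested cadherins were called, with 14 higher in ectoderm and 9 lower, where 45.7 percent of all tested genes were called. The median log2 fold change of the 33 was -0.04, against 0.01 over all tested genes. Taken singly, E9.5 had 16 called members (11 higher, 5 lower), E10.5 had 24 (17 higher, 7 lower), E11.5 had 18 (14 higher, 4 lower), and E12.5 had 23 (11 higher, 12 lower). Among all tested genes 21.4 percent were called for E9.5 (8.29 percent lower), 26.4 percent for E10.5 (10.2 percent lower), 20.6 percent for E11.5 (7.69 percent lower), plus 26.4 percent for E12.5. With the replicate number (RNA kit version) as a block, the called shares were 40.1, 46.5, 37.7 and 43.5 percent. With a block for the embryo batch that gave both layers of a replicate (the embryo block), they were 42.4, 48.6, 40.0 and 45.7 percent. Within a stage, embryo batch and kit changed together and cannot be told apart. The members called under the embryo block were 19, 24, 23 and 25. Gained at E9.5 were Cdh2, Cdh13 (adjusted p = 0.0114) and Dchs2. Gained at E11.5 were Cdh8 (adjusted p = 0.0281) and Dchs1, which is given below, together with Cdh20 (adjusted p = 0.0415), Cdh24 (adjusted p = 0.0111) and Pcdh15 (adjusted p = 0.0442). Gained at E12.5 were Cdh8 and Cdh24 (adjusted p = 0.00214). Called higher in ectoderm at every stage were 9 members, namely Cdh1, Pcdh1, Pcdh7, Pcdh9, Celsr1, Celsr2, Fat1, Fat2 and Fat3. Called lower at every stage were Cdh11 and Pcdh17. Cdh6, Pcdh19 and Fat4 were called higher at some stage and lower at another. How many of all tested genes had these patterns over the stages was not counted. Here and below a log2 fold change compares counts, ectoderm over mesoderm unless stages are named, is followed by its standard error (SE), and was called at an edgeR quasi-likelihood adjusted p under 0.05.

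**Figure D1:**
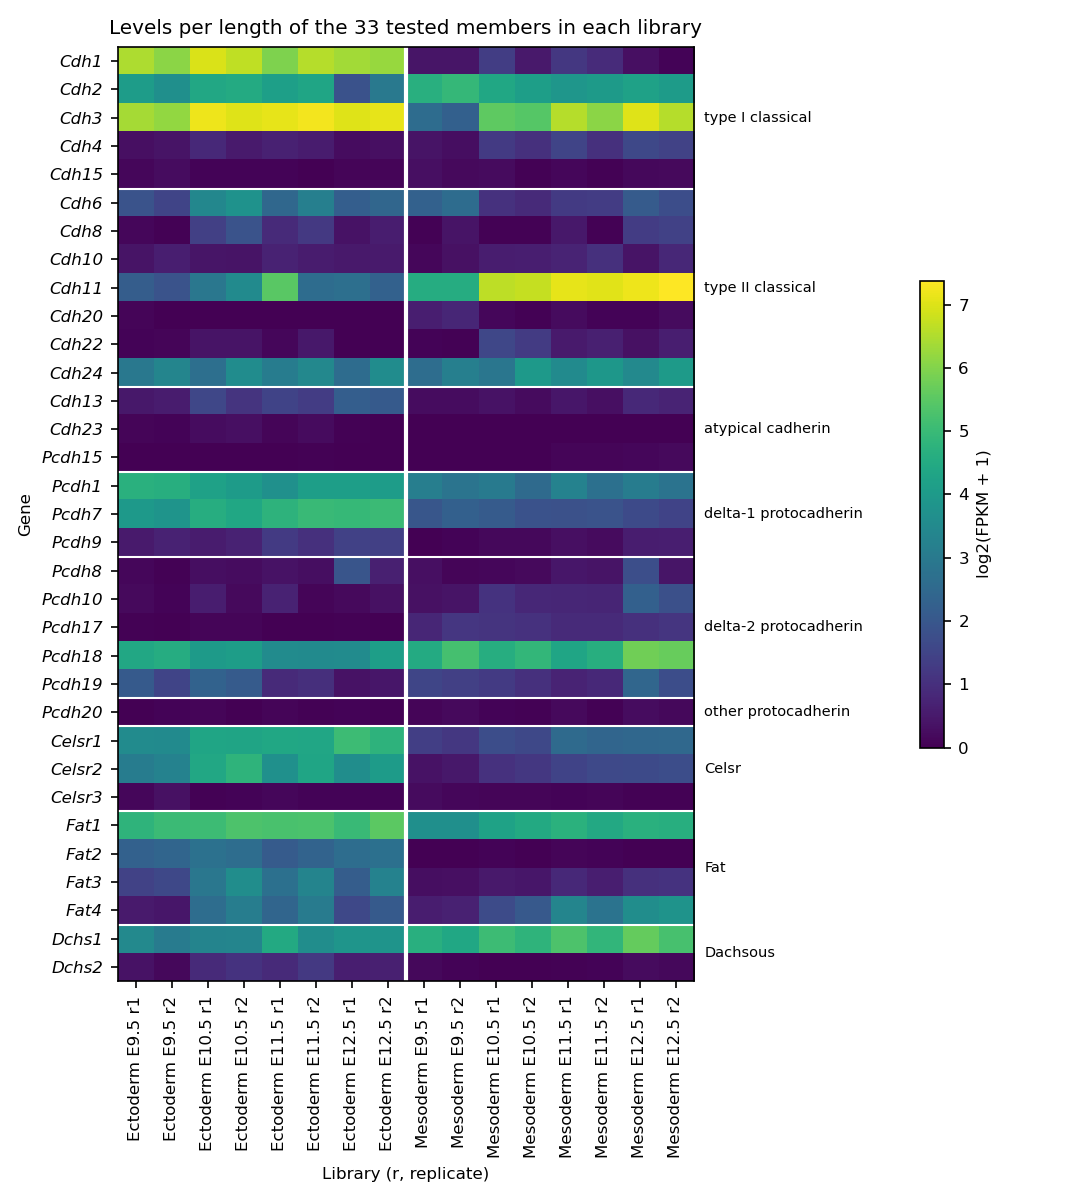
Levels per length, as log2(FPKM + 1), of the 33 tested members (down) in the 16 libraries (across, ectoderm left of mesoderm, 2 replicates per stage), grouped by role. Cdh1 and Cdh3 are bright in all ectoderm libraries, Cdh11 in the mesoderm libraries, and Cdh3 brightens in mesoderm with stage.

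Of the 5 type I classical cadherins, Cdh1 and Cdh3 were higher in ectoderm and Cdh2 and Cdh4 lower, on average over stages. Cdh1, the adhesion protein of epithelial junctions, had 87.0 and 67.8 FPKM (fragments per length and depth, replicate 1 then 2) in ectoderm for E9.5, 123 and 102 for E10.5, 61.3 and 92.5 for E11.5, plus 80.4 and 75.2 for E12.5. The mesoderm values were 0.327 and 0.329 FPKM for E9.5, 1.52 and 0.423 for E10.5, 1.28 and 0.883 for E11.5, plus 0.2396 and 0.0523 for E12.5. The layers lay far apart at every stage, with a log2 fold change of 7.45 (SE 0.33, adjusted p = 7.13e-09) and a higher value in ectoderm in 8 of 8 embryo batches. The E12.5 against E9.5 changes of Cdh1 did not pass the test (log2 -0.02 in ectoderm, adjusted p = 0.99, and -1.19 in mesoderm, adjusted p = 0.21).

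Cdh3, the P-cadherin gene that neighbours Cdh1 on chromosome 8, was the member with the highest mean FPKM in ectoderm and the next highest in mesoderm. Ectoderm had 82.0 and 71.8 FPKM for E9.5, 145 and 129 for E10.5, 136 and 152 for E11.5, plus 129 and 136 for E12.5. Mesoderm had 5.16 and 3.76 FPKM for E9.5, 46.2 and 42.5 for E10.5, 93.7 and 67.0 for E11.5, plus 128 and 92.8 for E12.5. The layers drew together: the log2 fold change was 4.04 (SE 0.30) at E9.5, 1.69 (SE 0.27) at E10.5, 0.91 (SE 0.27) at E11.5 and 0.34 (SE 0.27, adjusted p = 0.44) at E12.5. The mesoderm value rose by 4.44 on the log2 scale at E12.5 against E9.5 (SE 0.31, adjusted p = 1.08e-05), while the ectoderm change of 0.74 did not pass the test (adjusted p = 0.0851, and 0.00323 with the replicate number as a block). The interaction, the ectoderm change minus the mesoderm change, was -3.70 (SE 0.39, adjusted p = 3.31e-04), and it was -3.81 and -3.55 in replicates 1 and 2. In the 2 mesoderm libraries of E12.5 the surface epithelium markers summed to 16.95 and 5.92 CPM, the lowest of all mesoderm libraries, against 24.5 and 25.2 CPM at E9.5. The part of ectoderm RNA in the mesoderm values of Cdh3 was not tested. The E11.5 call did not hold without mesoderm E11.5 replicate 2 (log2 0.65, adjusted p = 0.23).

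Cdh2, N-cadherin, had 15.9 and 11.9 FPKM in ectoderm for E9.5, 20.6 and 21.8 for E10.5, 16.9 and 19.3 for E11.5, plus 2.65 and 6.93 for E12.5. Mesoderm had 24.4 and 29.4 FPKM for E9.5, 20.2 and 16.5 for E10.5, 13.7 and 15.3 for E11.5, plus 17.6 and 15.4 for E12.5. Ectoderm values lay below the mesoderm ones at E9.5 and E12.5 and above them at E10.5 and E11.5. At E12.5 the log2 fold change was -1.72 (SE 0.32, adjusted p = 0.00201). Within ectoderm Cdh2 fell by 1.64 on the log2 scale at E12.5 against E9.5 (SE 0.32, adjusted p = 0.00541). The E9.5 difference of -0.94 did not pass the test (adjusted p = 0.0542, and 0.0162 under the embryo block). The average layer difference was -0.49 (SE 0.16, adjusted p = 0.0240), with higher values in ectoderm in 4 of 8 batches, and its adjusted p was 0.0613 without ectoderm E9.5 replicate 2.

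Cdh4, R-cadherin, was at low levels in both layers and parted them with time. Ectoderm had 0.227 and 0.302 FPKM for E9.5, 0.787 and 0.438 for E10.5, 0.602 and 0.464 for E11.5, plus 0.174 and 0.230 for E12.5. Mesoderm had 0.306 and 0.220 FPKM for E9.5, 1.37 and 1.04 for E10.5, 1.86 and 1.02 for E11.5, plus 2.02 and 1.76 for E12.5. The layers overlapped at E9.5 and stood apart from E10.5 on, to a log2 fold change of -3.13 at E12.5 (SE 0.40, adjusted p = 1.44e-04). In mesoderm Cdh4 rose by 2.62 at E12.5 against E9.5 (SE 0.39, adjusted p = 5.87e-04), its ectoderm change of -0.45 did not pass the test (adjusted p = 0.54), and the interaction was -3.08 (SE 0.55, adjusted p = 0.00608). The E10.5 and E11.5 calls were lost without the mesoderm replicate 1 library of that stage (adjusted p = 0.26 at E10.5 and 0.23 at E11.5). Cdh15, M-cadherin of muscle precursors, had 22 counts or fewer in each library and was called in no comparison.

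**Figure D2:**
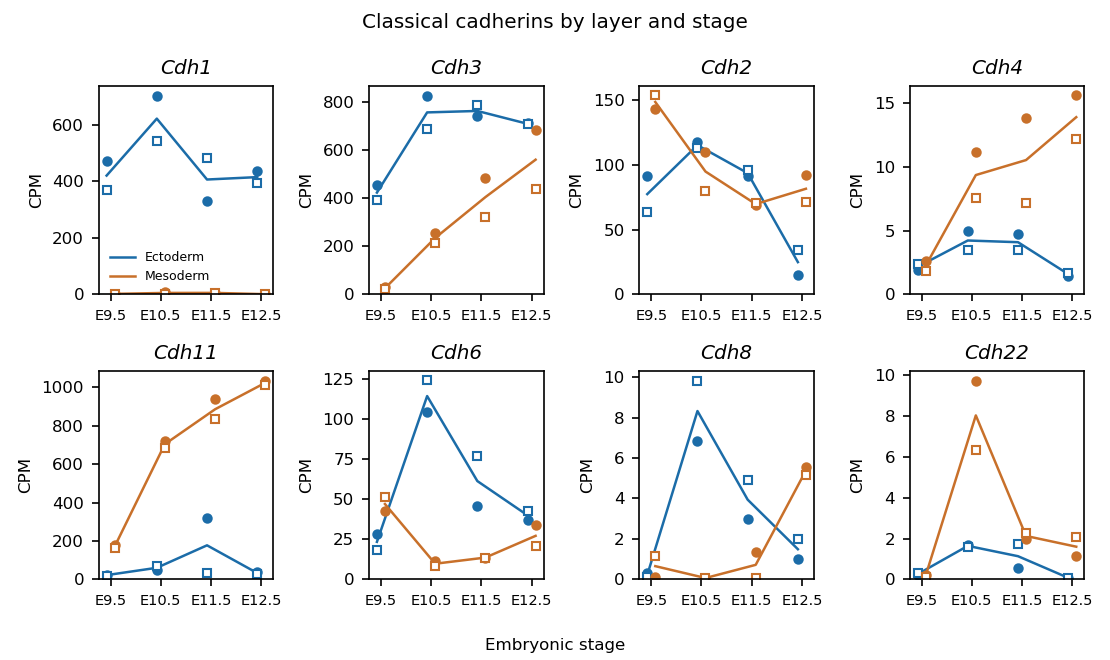
CPM (vertical axis, from 0) of 8 classical cadherins at the 4 stages. Circles are replicate 1, open squares replicate 2, lines the mean, with ectoderm in blue and mesoderm in orange. Cdh3 in mesoderm lies at 31.0 and 20.5 CPM at E9.5 and at 685 and 438 CPM at E12.5, Cdh11 in ectoderm E11.5 replicate 1 (321 CPM) stands off from replicate 2 (34.6 CPM), and the highest values of Cdh8 (in ectoderm) and Cdh22 (in mesoderm) are those of E10.5.

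Among 12 type II classical cadherins, 7 were tested, and on average over stages 1 (Cdh6) was higher in ectoderm and 3 (Cdh11, Cdh20 and Cdh22) were lower. Cdh11, a cadherin of mesenchymal cells, had 3.53 and 2.72 FPKM in ectoderm for E9.5, 6.57 and 10.46 for E10.5, 44.3 and 5.08 for E11.5, plus 5.50 and 3.89 for E12.5. Its mesoderm values were 22.8 and 22.7 FPKM for E9.5, 99.5 and 104 for E10.5, 138 and 132 for E11.5, plus 146 and 166 for E12.5, the highest mean FPKM of any member there. Every mesoderm library exceeded the ectoderm libraries of its stage, and the average log2 fold change was -3.44 (SE 0.36, adjusted p = 1.08e-05). The high ectoderm E11.5 replicate 1 value came from the library with the highest mesenchyme marker sum (44.6 percent of its mesoderm partner, against 21.8 percent in replicate 2), whose part in it was not tested. Without that library the E11.5 log2 fold change was -4.74, against -2.32 with it, and the average was -4.07. The E9.5 call was lost without ectoderm E9.5 replicate 2 (adjusted p = 0.10) and the E11.5 call without mesoderm E11.5 replicate 1 (adjusted p = 0.11). In mesoderm Cdh11 rose by 2.58 at E12.5 against E9.5 (SE 0.70, adjusted p = 0.0168, and 0.0936 without mesoderm E9.5 replicate 2).

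Cdh6, known from early kidney and limb development, changed sides. Ectoderm had 2.68 and 1.84 FPKM for E9.5, 9.72 and 12.6 for E10.5, 4.48 and 8.03 for E11.5, plus 3.61 and 4.38 for E12.5. Mesoderm had 3.86 and 5.05 FPKM for E9.5, 1.09 and 0.852 for E10.5, 1.40 and 1.47 for E11.5, plus 3.36 and 2.36 for E12.5. The ectoderm libraries were below the mesoderm ones at E9.5 (log2 -1.01, SE 0.31, adjusted p = 0.0380) and above them at E10.5 (3.54, SE 0.34, adjusted p = 1.75e-05) and E11.5 (2.17, SE 0.32, adjusted p = 5.28e-04). The E9.5 call was lost in 9 of 16 fits that left out 1 library, with adjusted p up to 0.27, reached without ectoderm E9.5 replicate 2.

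Cdh8, a type II cadherin known from the nervous system, was at low counts. At E10.5 it had 77 and 147 counts in ectoderm and 2 and 1 in mesoderm, a ratio of 124 with a 95 percent counting interval of 41.9 to 606. At E12.5 it had 22 and 30 counts in ectoderm and 128 and 85 in mesoderm. The E10.5 difference was called (adjusted p = 0.00165), and the E12.5 one was not (adjusted p = 0.16, and 0.0379 under the embryo block). Mesoderm replicates differed widely at E9.5 (3 and 19 counts) and at E11.5 (31 and 1 counts). Within mesoderm Cdh8 rose by 3.07 at E12.5 against E9.5 (SE 0.95, adjusted p = 0.0308, and 0.17 without mesoderm E9.5 replicate 1). The intervals cover counting error only.

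Cdh20 and Cdh22, also known mainly from neural tissue, had few counts in ectoderm. Cdh20 was near the limit of detection there at every stage, and Cdh22 at E9.5 and E12.5. Cdh20 had 3 and 2 counts in ectoderm for E9.5, 0 and 0 for E10.5, 2 and 1 for E11.5, plus 0 and 0 for E12.5. For mesoderm they were 62 and 58 counts for E9.5, 14 and 2 for E10.5, 16 and 4 for E11.5, plus 6 and 11 for E12.5. Cdh20 passed the low-count filter through mesoderm libraries alone, so the side on which it was high was fixed in part by the filter. Against a floor of 3 counts over both ectoderm libraries, it was at least 3.21-fold lower in E10.5 ectoderm and at least 5.33-fold lower in E12.5 ectoderm. These calls were lost without mesoderm E10.5 replicate 1 (adjusted p = 0.18) and ectoderm E12.5 replicate 1 (adjusted p = 0.0708). Within mesoderm it fell by 2.82 on the log2 scale at E12.5 against E9.5 (SE 0.76, adjusted p = 0.0210, and 0.14 without mesoderm E12.5 replicate 1).

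Cdh22 in ectoderm had 2 and 5 counts for E9.5, 19 and 24 for E10.5, 13 and 26 for E11.5, plus 2 and 1 for E12.5. Mesoderm libraries held 5 and 2 counts for E9.5, 282 and 93 for E10.5, 45 and 34 for E11.5, plus 26 and 34 for E12.5. The mesoderm values were highest at E10.5, where ectoderm was lower (log2 -2.29, SE 0.52, adjusted p = 0.00653, and 0.0590 without mesoderm E10.5 replicate 1). At E12.5 the ratio of ectoderm to mesoderm was 0.0531, with a counting interval of 0.0107 to 0.163, and in mesoderm Cdh22 rose by 3.06 against E9.5 (SE 0.62, adjusted p = 0.00366). Cdh24 was present in both layers, with 5.11 to 11.04 FPKM in ectoderm and 5.21 to 15.1 FPKM in mesoderm. Its average log2 fold change of -0.22 (SE 0.20) did not pass the test (adjusted p = 0.42), though it did under the embryo block (-0.23, adjusted p = 0.00391). Cdh10 was called in no comparison without a block. Cdh7, Cdh9, Cdh12, Cdh18 and Cdh19 had 2 to 28 counts in all 16 libraries together and were not tested.

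Within a library, Cdh1 and Cdh3 made up 72.3 to 92.1 percent of the summed FPKM of all classical cadherins in ectoderm and 5.76 to 41.4 percent in mesoderm. Type II members made up 6.58 to 21.3 percent in ectoderm and 51.8 to 66.9 percent in mesoderm. The 21.3 percent was in ectoderm E11.5 replicate 1, the library with the highest mesenchyme marker share, and the highest value in the other ectoderm libraries was 12.95 percent. The ranges of the layers did not overlap for either share. In mesoderm the share of Cdh1 and Cdh3, almost all of it Cdh3, was 8.70 and 5.76 percent for E9.5, 26.7 and 23.5 for E10.5, 36.2 and 29.0 for E11.5, plus 41.4 and 31.3 for E12.5. Summed classical cadherin FPKM was 166 to 313 in ectoderm. In mesoderm it was 63.0 and 71.0 at E9.5, and 309 and 297 at E12.5. These shares are of RNA per length and say nothing of protein.

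Genes of adherens junction proteins that work with classical cadherins were mostly higher in ectoderm. Of 26 tested, 21 were higher and 3 lower, with a median log2 fold change of 1.10, where 24.3 percent of all tested genes were higher and 21.4 percent lower. These shares are also the background of the lists that follow. The 4 with the largest difference were Nectin4, an adhesion receptor beside cadherins (6.95, SE 0.30), Plekha7, which binds p120-catenin (4.01, SE 0.16), the delta-catenin gene Ctnnd2 (3.99, SE 0.18) and Ablim1, an actin-binding protein (3.16, SE 0.09). All 12 epithelial regulators were higher, with a median of 6.65, led by the transcription factor Ovol1 (7.94), the claudin Cldn4 (7.66), the splicing regulator Esrp1 (7.53) and Grhl2 (7.16), and 2 of the 12 (Epcam and Esrp1) also serve as surface epithelium markers. Of 11 listed factors, most of them known to repress E-cadherin transcription, 8 were lower and 3 higher in ectoderm, with a median of -2.05. The largest differences were in Zeb1 (-3.54, SE 0.27), Snai1 (-3.47, SE 0.38), Twist1 (-3.04, SE 0.33) and Foxc2 (-2.98, SE 0.45), of which Twist1 is also a mesenchyme marker. The 3 higher ones were Tbx3 (1.63), Klf8 (0.61) and Snai2 (0.56).

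Of 19 tested enzymes that mature or cut cadherins, 8 were higher and 1 lower in ectoderm, with a median log2 fold change of 0.18. That is near the 45.7 percent called among all tested genes. Tmtc1, which adds O-mannose to cadherin repeats, had a log2 fold change of 4.32 (SE 0.18), and the proprotein convertase Pcsk5 one of 3.06 (SE 0.12). The gamma-secretase subunit Ncstn (0.82, SE 0.06) and the O-mannosyltransferase Tmtc3 (0.82, SE 0.14) followed.

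Ctnnd1, the gene of p120-catenin, differed little in its total (log2 0.28, SE 0.10, adjusted p = 0.0402) but differed between layers in which exon pieces were used (edgeR exon bin test, Simes adjusted p = 1.31e-10). p120-catenin is known to be spliced differently in epithelial and mesenchymal cells. The bin with the lowest p was a coding exon of 18 bases at chr2:84612532-84612549 (mm10, minus strand). It is shown with 21 transcript bases on either side, with the exon in capitals.
Ctnnd1 exon: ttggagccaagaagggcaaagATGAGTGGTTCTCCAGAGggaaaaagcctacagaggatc
It held 0.239 to 0.664 percent of the gene's bin counts in the 8 ectoderm libraries (median 0.498) and 1.02 to 1.73 percent in the 8 mesoderm libraries (median 1.32), with no overlap. At the 5′ side of the gene, 2 adjoining coding bins (chr2:84624270-84624449 and chr2:84624450-84624558) were also used less in ectoderm. The first held 1.19 to 1.91 percent in ectoderm and 2.01 to 3.07 percent in mesoderm, the other 0.756 to 1.33 percent in ectoderm and 1.69 to 2.28 percent in mesoderm. A small non-coding bin beside them (chr2:84626020-84626137) held at most 0.0765 percent in ectoderm and 0.231 percent in mesoderm.

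No such difference in exon use was called among the cadherin members themselves. Of 12203 genes tested, 196 (1.61 percent) were called, and of 26 members with enough bins none was called by the Simes test or by the gene-wise F test. At an unadjusted p under 0.05 stood 2 members by the Simes test (Dchs2, adjusted p = 0.15, and Fat3, adjusted p = 0.39) and 4 by the F test (these and Celsr2 and Fat2).

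The delta protocadherins carry short conserved motifs in their cytoplasmic tails. All 3 tested delta-1 genes (Pcdh1, Pcdh7 and Pcdh9) were higher in ectoderm at every stage. Of the 5 delta-2 genes, Pcdh10, Pcdh17 and Pcdh18 were lower on average, while Pcdh8 and Pcdh19 were not called. Pcdh7 had 14.5 and 13.1 FPKM in ectoderm for E9.5, 23.4 and 20.2 for E10.5, 26.3 and 31.3 for E11.5, plus 29.7 and 31.7 for E12.5. The mesoderm values were 2.93 and 3.81 FPKM for E9.5, 3.32 and 2.61 for E10.5, 2.54 and 2.70 for E11.5, plus 2.14 and 1.81 for E12.5. The gap widened from both sides, with a log2 fold change of 2.09 (SE 0.17) at E9.5 and 4.11 (SE 0.19) at E12.5. At E12.5 against E9.5 Pcdh7 rose by 1.18 in ectoderm (SE 0.17, adjusted p = 7.69e-04) and fell by 0.84 in mesoderm (SE 0.17, adjusted p = 0.00395), an interaction of 2.02 (SE 0.24, adjusted p = 6.12e-04).

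Pcdh1, known from airway and skin epithelium, had 24.7 and 23.5 FPKM in ectoderm for E9.5, 17.7 and 15.4 for E10.5, 11.95 and 16.5 for E11.5, plus 16.7 and 15.82 for E12.5. Mesoderm had 7.88 and 6.14 FPKM for E9.5, 7.26 and 4.90 for E10.5, 8.68 and 5.57 for E11.5, plus 7.48 and 6.05 for E12.5. Ectoderm was higher in 8 of 8 batches (average log2 1.39, SE 0.14, adjusted p = 6.85e-06), and the E11.5 and E12.5 calls were lost without the mesoderm replicate 2 library of that stage (adjusted p = 0.17 at E11.5 and 0.0530 at E12.5). Pcdh9 had 22 and 49 counts in ectoderm at E9.5 against 0 and 3 in mesoderm, a ratio of 33.8 with a counting interval of 11.1 to 168. It rose in both layers by E12.5, to 198 and 136 counts in ectoderm and 74 and 42 in mesoderm. The ectoderm rise (log2 1.76, adjusted p = 0.0431) was lost in 10 of 16 fits that left out 1 library, and the E12.5 layer call (log2 1.63, adjusted p = 0.0367) in 8 of 16.

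Pcdh18 averaged 32.1 FPKM in mesoderm, close to the 31.95 FPKM of Dchs1, and 15.4 FPKM in ectoderm. Ectoderm had 20.3 and 22.7 FPKM for E9.5, 15.2 and 16.3 for E10.5, 10.8 and 10.7 for E11.5, plus 10.9 and 16.5 for E12.5. Mesoderm had 21.9 and 35.7 FPKM for E9.5, 23.4 and 28.7 for E10.5, 19.1 and 23.6 for E11.5, plus 54.2 and 49.9 for E12.5. The layers moved in opposite directions between E9.5 and E12.5, with a fall of 0.73 on the log2 scale in ectoderm (adjusted p = 0.0378) and a rise of 0.73 in mesoderm (adjusted p = 0.0240). Both changes were lost without some 1 library (ectoderm E12.5 replicate 1, adjusted p = 0.27, and mesoderm E9.5 replicate 1, adjusted p = 0.19), and the interaction of -1.46 (SE 0.30, adjusted p = 0.0124) had an adjusted p of at most 0.0529 in such fits.

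Pcdh17, a delta-2 gene, was the member with the largest called average deficit in ectoderm. Its FPKM in ectoderm was 0.0372 and 0.0173 for E9.5, 0.0793 and 0.0685 for E10.5, 0.0154 and 0.0149 for E11.5, plus 0.0324 and 0.0197 for E12.5. Its mesoderm values were 0.734 and 1.24 for E9.5, 1.161 and 1.09 for E10.5, 0.853 and 0.849 for E11.5, plus 1.04 and 1.21 for E12.5. The log2 fold change was -5.02 (SE 0.19, adjusted p = 2.79e-09), lower in 8 of 8 batches, with no change called between E9.5 and E12.5 in either layer. The endothelial markers given above differed in the same direction, and their part in the Pcdh17 values was not tested.

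Pcdh19, a delta-2 gene on the X chromosome that is known to act with N-cadherin, had 3.23 and 1.83 FPKM in ectoderm for E9.5, 4.004 and 3.33 for E10.5, 0.835 and 0.981 for E11.5, plus 0.275 and 0.366 for E12.5. For mesoderm they were 1.93 and 1.62 FPKM for E9.5, 1.41 and 1.04 for E10.5, 0.665 and 0.789 for E11.5, plus 4.45 and 2.36 for E12.5. It was higher in ectoderm at E10.5 (log2 1.62, SE 0.41, adjusted p = 0.0118, and 0.10 without mesoderm E10.5 replicate 2) and lower at E12.5 (-3.30, SE 0.44, adjusted p = 2.04e-04), with an average of -0.20 that did not pass the test (adjusted p = 0.47). In ectoderm it fell by 3.004 at E12.5 against E9.5 (SE 0.44, adjusted p = 9.15e-04), while the mesoderm change of 0.79 did not pass the test (adjusted p = 0.17, and 0.0400 with the replicate number as a block). The interaction was -3.79 (SE 0.59, adjusted p = 0.00276), and -4.51 and -2.64 in replicates 1 and 2.

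Pcdh10 in ectoderm had 9 and 8 counts for E9.5, 54 and 16 for E10.5, 112 and 9 for E11.5, plus 24 and 26 for E12.5. Mesoderm libraries held 41 and 42 counts for E9.5, 255 and 75 for E10.5, 114 and 77 for E11.5, plus 641 and 269 for E12.5. It was lower in ectoderm on average (log2 -1.97, SE 0.42, adjusted p = 0.00225), and of the single stages the call was made at E12.5 (-3.99, SE 0.87, adjusted p = 0.00481, and 0.0541 without ectoderm E12.5 replicate 1). Its ectoderm E11.5 replicates, 112 and 9 counts, differed in the same direction as those of Cdh11. At E10.5 they also differed (54 and 16 counts), while Cdh11 was higher in replicate 2 (549 and 1085 counts). Pcdh8, known from somites, rose in both layers between E9.5 and E12.5, but its E12.5 replicates lay far apart, at 301 and 38 counts in ectoderm and 264 and 22 in mesoderm. The mesoderm rise (log2 3.11, adjusted p = 0.0376) was 0.85 without mesoderm E12.5 replicate 1 (adjusted p = 0.59), and the ectoderm rise of 4.83 was 3.12 without ectoderm E12.5 replicate 1. Pcdh20 had 21 counts or fewer per library and was called in no comparison.

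**Figure D3:**
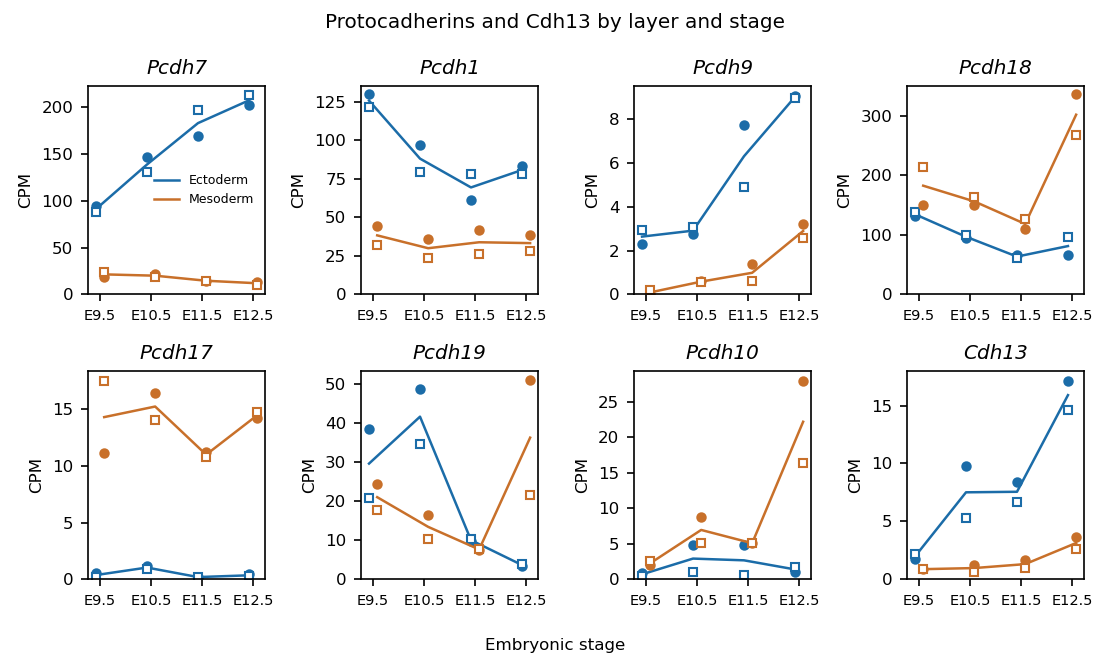
CPM (vertical axis, from 0) of 7 protocadherins and Cdh13 at the 4 stages, with circles for replicate 1, open squares for replicate 2 and lines for the mean, ectoderm in blue and mesoderm in orange. Pcdh7 climbs in ectoderm to 202 and 212 CPM at E12.5 against 13.3 and 10.6 CPM in mesoderm, while the mesoderm means of Pcdh19 and Pcdh18 are highest at E12.5.

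The planar polarity cadherins Celsr1 and Celsr2 were among the clearest ectoderm genes. Celsr1 had 10.9 and 10.52 FPKM in ectoderm for E9.5, 19.1 and 18.9 for E10.5, 19.9 and 19.7 for E11.5, plus 32.5 and 26.4 for E12.5. The mesoderm values were 1.57 and 1.30 FPKM for E9.5, 2.34 and 2.03 for E10.5, 4.88 and 4.33 for E11.5, plus 4.50 and 4.68 for E12.5. The average log2 fold change was 2.69 (SE 0.11, adjusted p = 3.83e-09), and the gene rose side by side in both layers at E12.5 against E9.5, by 1.43 in ectoderm (adjusted p = 8.64e-04) and 1.29 in mesoderm (adjusted p = 0.00106). The interaction was 0.14 (SE 0.29) and did not pass the test.

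Celsr2 had 7.62 and 8.70 FPKM in ectoderm for E9.5, 20.7 and 27.0 for E10.5, 11.9 and 19.3 for E11.5, plus 11.3 and 15.7 for E12.5. Mesoderm had 0.296 and 0.380 FPKM for E9.5, 1.07 and 1.30 for E10.5, 1.80 and 2.11 for E11.5, plus 2.15 and 2.36 for E12.5. Ectoderm stayed higher throughout (average log2 3.65, SE 0.11, adjusted p = 5.32e-10), but the gap narrowed, since mesoderm Celsr2 rose by 2.39 (SE 0.21) and ectoderm Celsr2 by 0.65 (SE 0.19) at E12.5 against E9.5. The interaction was -1.74 (SE 0.28, adjusted p = 0.00332). The ectoderm rise was lost in 12 of 16 fits that left out 1 library. Celsr3, known from neurons, had 21 counts or fewer per library and was called in no comparison.

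The 250 bases before the Celsr2 start (RefSeq, GRCm38.p6, chr3:108415580-108415829, minus strand) are printed for the letters CAGGTG, which the opposite strand reads as CACCTG. The families of Zeb1 and Snai1 are known to bind these letters. Whether Zeb1 or Snai1 acts on Celsr2 was not tested. This window was chosen after the values were seen, and its matches are in capitals.
Celsr2 upstream: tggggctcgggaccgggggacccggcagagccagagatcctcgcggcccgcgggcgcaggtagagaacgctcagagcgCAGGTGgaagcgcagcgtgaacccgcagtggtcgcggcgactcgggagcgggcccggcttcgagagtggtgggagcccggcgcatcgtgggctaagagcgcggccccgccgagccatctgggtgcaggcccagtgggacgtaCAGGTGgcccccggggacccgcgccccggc
The matches begin 172 and 30 bases before the start. Of 29 members with a window in the table (32 windows), 4 had a match on either strand in some window (Cdh7, Celsr2, Fat1 and Pcdh15). Of all 32851 windows 17.2 percent had one, a share of windows and not of genes. Of the members called higher in ectoderm at every stage, Celsr2 and Fat1 had a match, while Fat2, Fat3, Pcdh7 and Pcdh9 had none. Cdh1, Cdh3, Cdh4, Cdh11, Pcdh1 and Celsr1 were among the members with no entry. A match is a description of letters, not of binding.

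Of 20 other core planar polarity genes tested, 11 were higher and 2 lower in ectoderm, with a median log2 fold change of 0.36, where 24.3 percent of all tested genes were higher and 21.4 percent lower. The receptor Fzd6 had 5.06 (SE 0.13), the ligand Wnt11 2.69 (SE 0.22), the receptor Ror1 2.59 (SE 0.22) and Prickle3 1.69 (SE 0.14), all higher in ectoderm.

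The 4 Fat genes, giant cadherins with a long row of repeats, did not share 1 pattern. Fat1 was the third highest member in ectoderm by mean FPKM, with 26.7 and 32.0 FPKM for E9.5, 32.5 and 38.9 for E10.5, 37.5 and 38.1 for E11.5, plus 30.8 and 44.7 for E12.5. Its mesoderm values were 11.8 and 11.7 FPKM for E9.5, 18.2 and 21.2 for E10.5, 25.3 and 21.1 for E11.5, plus 24.7 and 23.5 for E12.5. It was higher in ectoderm in 8 of 8 batches, but by a modest step (log2 0.93, SE 0.10, adjusted p = 8.02e-06), and it rose in mesoderm by 0.87 at E12.5 against E9.5 (SE 0.19, adjusted p = 0.00585). Its E11.5 and E12.5 calls did not hold without mesoderm E11.5 replicate 2 (adjusted p = 0.11) and ectoderm E12.5 replicate 2 (adjusted p = 0.14).

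Fat2, known from epidermis and from migrating epithelia, was the member with the largest layer difference. It had 3.91 and 4.28 FPKM in ectoderm for E9.5, 5.68 and 5.28 for E10.5, 3.35 and 4.12 for E11.5, plus 5.26 and 5.61 for E12.5. For mesoderm they were 0.0151 and 0 FPKM for E9.5, 0.0526 and 0.0126 for E10.5, 0.0725 and 0.0424 for E11.5, plus 0.0101 and 0.0120 for E12.5. The log2 fold change was 7.79 (SE 0.30, adjusted p = 2.54e-09), near that of Cdh1, with no change called between E9.5 and E12.5 in either layer. Fat3 followed at 3.21 (SE 0.18, adjusted p = 5.69e-08), from 1.74 to 11.3 FPKM in ectoderm and 0.212 to 1.10 FPKM in mesoderm, and rose in both layers. The ectoderm rise of 1.47 was 0.88 without ectoderm E12.5 replicate 2 (adjusted p = 0.12).

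Fat4, the receptor of Dachsous, turned from ectoderm to mesoderm. Ectoderm had 0.433 and 0.362 FPKM for E9.5, 5.19 and 7.79 for E10.5, 4.33 and 7.43 for E11.5, plus 2.05 and 3.23 for E12.5. Mesoderm had 0.501 and 0.611 FPKM for E9.5, 2.22 and 3.20 for E10.5, 9.31 and 6.01 for E11.5, plus 11.2 and 13.0 for E12.5. Ectoderm was higher at E10.5 (log2 1.32, SE 0.31, adjusted p = 0.00771) and lower at E12.5 (-2.09, SE 0.32, adjusted p = 4.53e-04). The E10.5 call was lost without mesoderm E10.5 replicate 1 (adjusted p = 0.0775). The average of -0.40 missed the threshold (adjusted p = 0.0525), and so did the interaction of -1.57 (adjusted p = 0.0544). Under the embryo block these were called, with adjusted p = 0.0230 for the average and 0.0211 for the interaction. Fat4 rose in both layers at E12.5 against E9.5, by 2.68 in ectoderm (SE 0.33) and 4.25 in mesoderm (SE 0.35).

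The Dachsous genes lay on opposite sides. Dchs1 had 10.1 and 7.42 FPKM in ectoderm for E9.5, 8.98 and 9.16 for E10.5, 21.3 and 11.3 for E11.5, plus 13.4 and 13.2 for E12.5. Mesoderm libraries held 24.3 and 20.2 FPKM for E9.5, 32.5 and 27.0 for E10.5, 38.5 and 28.2 for E11.5, plus 48.6 and 36.3 for E12.5. It was lower in ectoderm in 8 of 8 batches (log2 -1.39, SE 0.17, adjusted p = 3.18e-05). The E11.5 difference of -0.95 did not pass the test (adjusted p = 0.0694, and 2.92e-04 under the embryo block), and the E9.5 call was lost without ectoderm E9.5 replicate 2 (adjusted p = 0.11).

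Dchs2 had 37 and 28 counts in ectoderm for E9.5, 131 and 221 for E10.5, 267 and 258 for E11.5, plus 169 and 111 for E12.5. The mesoderm values were 36 and 12 counts for E9.5, 5 and 2 for E10.5, 11 and 8 for E11.5, plus 51 and 22 for E12.5. The ectoderm excess was greatest at E10.5, at a log2 fold change of 6.32 (SE 0.60, adjusted p = 1.65e-05), and averaged 3.57 (SE 0.26, adjusted p = 4.36e-07). Per length it stayed low, at most 1.32 FPKM in ectoderm. The E9.5 difference of 1.13 did not pass the test (adjusted p = 0.12, and 0.00996 under the embryo block). The E12.5 call (log2 2.06) was lost without mesoderm E12.5 replicate 2 (adjusted p = 0.0532).

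Partners of Fat and Dachsous, including the Hippo pathway, were split. Of 20 tested, 7 were higher and 5 lower in ectoderm, with a median log2 fold change of 0.06, where 24.3 percent of all tested genes were higher and 21.4 percent lower. Fjx1, the mouse relative of the Drosophila kinase four-jointed that acts on Fat and Dachsous, had 2.68 (SE 0.18), and the transcription factor Tead4 2.62 (SE 0.14). Lix1l (-3.37, SE 0.31) and Lix1 (-3.15, SE 0.32), relatives of Drosophila lowfat, which binds Fat and Dachsous, were lower.

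**Figure D4:**
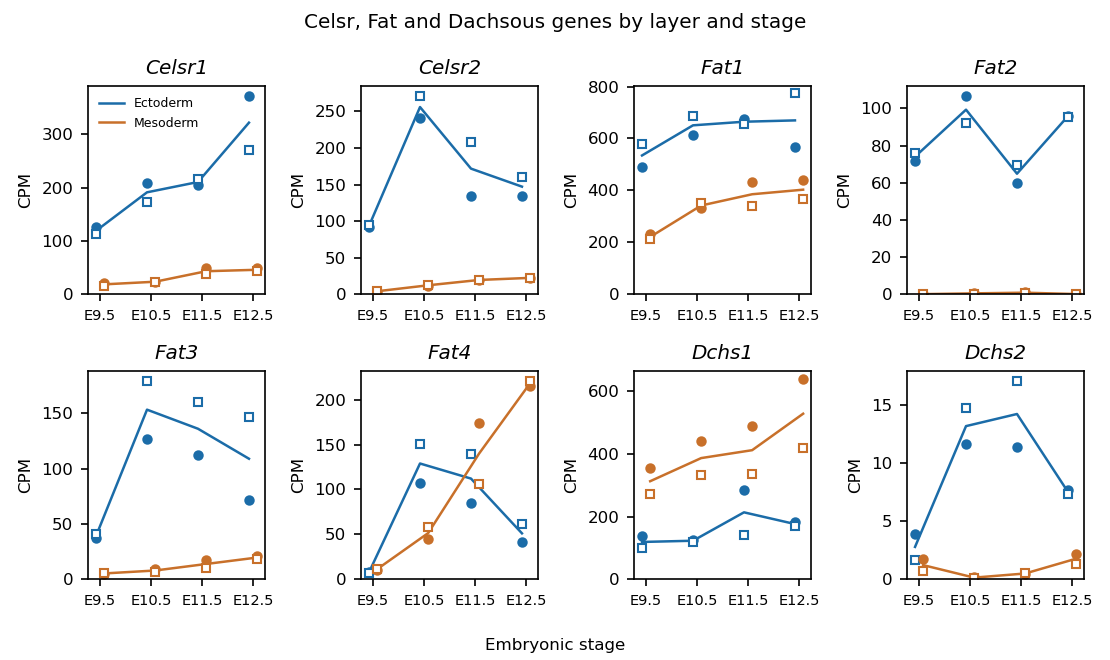
CPM (vertical axis, from 0) of Celsr1, Celsr2 and the Fat and Dachsous members at the 4 stages, with circles for replicate 1, open squares for replicate 2 and lines for the mean, ectoderm in blue and mesoderm in orange. Fat4 crosses over, with 108 and 150 CPM in ectoderm at E10.5 against 44.5 and 58.6 CPM in mesoderm, and 41.3 and 61.2 CPM in ectoderm at E12.5 against 215 and 221 CPM in mesoderm.

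The remaining members are atypical cadherins. Cdh13, T-cadherin, which is held by a lipid anchor, had 0.382 and 0.470 FPKM in ectoderm at E9.5 and 3.64 and 3.28 at E12.5, against 0.182 and 0.186 in mesoderm at E9.5 and 0.793 and 0.658 at E12.5. It was higher in ectoderm (log2 2.22, SE 0.20, adjusted p = 3.12e-06) and rose in both layers. Cdh23, a cadherin of hair cell tip links in the inner ear, had 9 and 12 counts in ectoderm for E9.5, 32 and 50 for E10.5, 21 and 30 for E11.5, plus 8 and 3 for E12.5. Mesoderm had 3 and 1 counts for E9.5, 3 and 2 for E10.5, 1 and 2 for E11.5, plus 2 and 0 for E12.5. The average log2 fold change was 3.48 (SE 0.42, adjusted p = 2.84e-05), and the ratio was 16.6 at E11.5 (counting interval 5.35 to 82.9). The E12.5 difference was not called (adjusted p = 0.0829), the E9.5 call was lost in the 4 fits that left out a library of that stage, and the E11.5 call was lost without mesoderm E11.5 replicate 1 (adjusted p = 0.0616). Pcdh15, its partner in the tip link, lay on the other side, with 3 and 0 counts in ectoderm at E12.5 against 22 and 20 in mesoderm, a ratio of 0.0759 (counting interval 0.0151 to 0.238), and none in either layer at E9.5. Pcdh15 passed the low-count filter through mesoderm at E11.5 and E12.5 alone, with 3 counts or fewer in any other library. Cdh23 passed it through ectoderm, with 3 counts or fewer in each mesoderm library. The side on which each was high was thus fixed in part by the filter. The E12.5 call of Pcdh15 (adjusted p = 0.0294) was lost in 5 of 16 fits that left out 1 library. Cdh17 and Cdh26 had 21 and 14 counts over all libraries and were not tested.

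**Figure D5:**
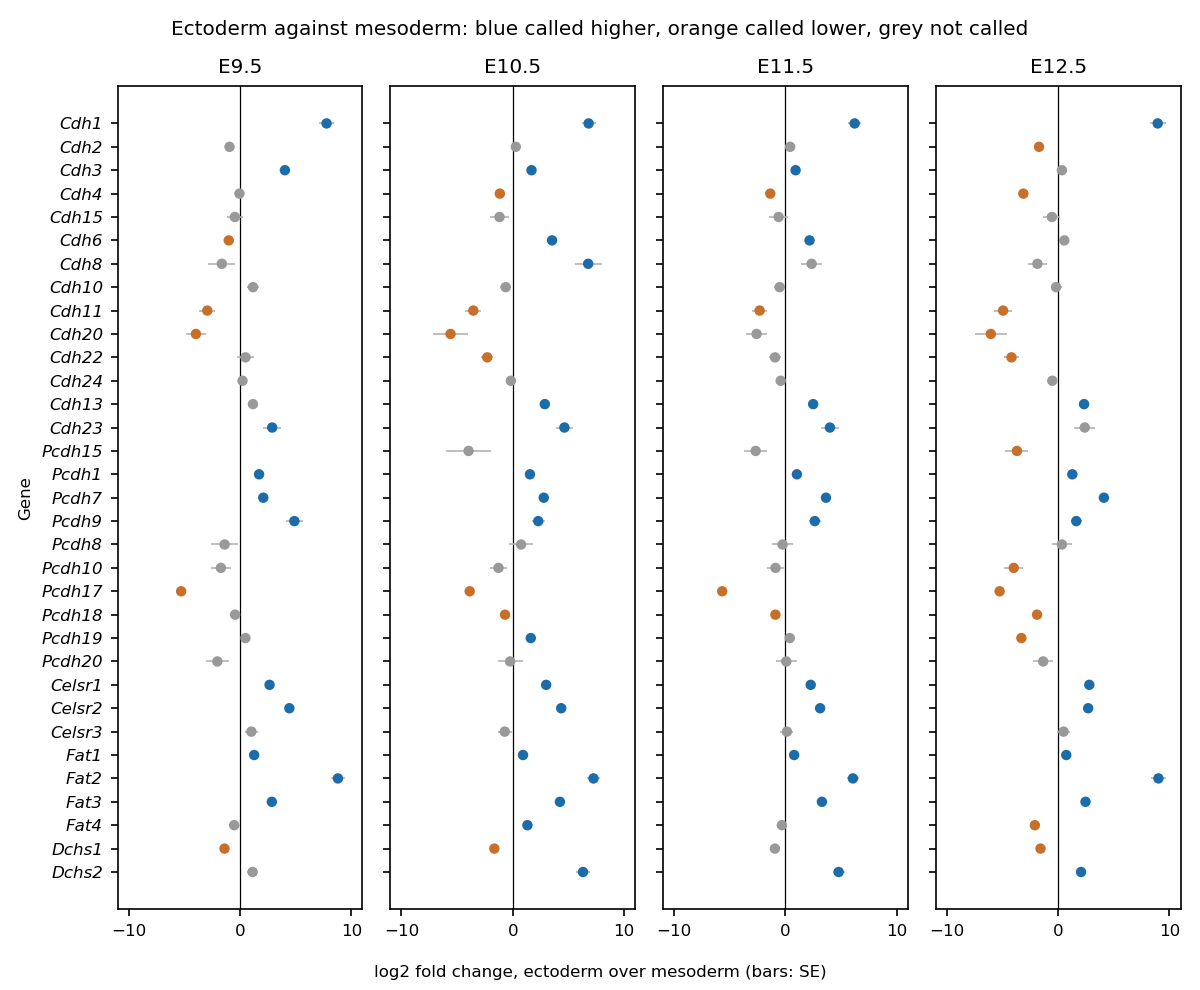
The log2 fold change of ectoderm over mesoderm (horizontal axis, with bars of 1 SE) for the tested members (down) at each stage, blue where called higher, orange where called lower and grey where not called. Pcdh15 at E9.5 has no counts and is left out, and fitted values of genes near 0 counts are no bounds. At E10.5, 17 members are called higher and 7 lower, and at E12.5, 11 higher and 12 lower.

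At E12.5 against E9.5 in mesoderm 18 of 33 members were called, 16 higher and 2 lower, where 29.6 percent of all tested genes were called and 17 percent called higher. In ectoderm 11 were called, 8 higher and 3 lower, where 16.1 percent of tested genes were called and 9.1 percent called higher. The ectoderm count was 7 without ectoderm E9.5 replicate 1, 6 without ectoderm E9.5 replicate 2 and 7 without ectoderm E12.5 replicate 1. The 3 that fell in ectoderm were Cdh2, Pcdh18 and Pcdh19, and the 2 that fell in mesoderm were Cdh20 and Pcdh7. Cdh13, Pcdh8, Pcdh9, Celsr1, Celsr2, Fat3 and Fat4 rose in both layers. Called up in mesoderm and not called in ectoderm were 8, namely Cdh3, Cdh4, Cdh8, Cdh11, Cdh22, Pcdh10, Pcdh15 and Fat1. That they differ between layers was called for Cdh3, Cdh4 and Cdh22 alone. How many of all tested genes were called up in both layers, or in mesoderm and not in ectoderm, was not counted. The median log2 change of the tested members was 0.79 in mesoderm and 0.56 in ectoderm, against 0.02 and 0.00 over all tested genes.

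Markers known from other cells moved in mesoderm over the same interval. All 9 macrophage markers rose, with a summed level of 138 and 48.4 CPM at E12.5 against 2.87 and 2.83 CPM at E9.5. Of 6 tested cartilage markers 3 rose, with 1182 and 743 CPM at E12.5 against 108 and 80.7 CPM at E9.5. Of 7 tested neural crest and glia markers 4 rose, with 68.9 and 80.6 CPM at E12.5 against 32.8 and 39.2 CPM at E9.5. All 5 tested muscle markers fell, as did 3 of 8 erythroid and 4 of 10 surface epithelium markers, and of 11 limb mesenchyme markers 2 rose. The 10 endothelial markers had a median log2 change of 0.24. Some of these lists were also high in ectoderm, so their sums are not specific to the named cells. There the cartilage list summed to 499 to 1974 CPM, with Col2a1 at 463 to 1933 CPM. The muscle list summed to 23.5 to 184 CPM, with Met at 22.5 to 170 CPM. The neural crest and glia list summed to 119 to 220 CPM, with Erbb3 at 76.3 to 186 CPM. At E12.5 the cartilage sum was lower in ectoderm (507 and 499 CPM) than in mesoderm. The part of these markers in the member changes was not tested.

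The test of the difference itself, the interaction of layer and stage, called 8 members where 8.27 percent of tested genes were called and 5.15 percent called negative. It was positive for Pcdh7 and Cdh6 and negative for Cdh3, Cdh4, Cdh22, Pcdh18, Pcdh19 and Celsr2. The Cdh6 call (adjusted p = 0.0499) was lost in 13 of 16 fits that left out 1 library, that of Cdh22 in 4 and that of Pcdh18 in 3, and 5 members were called without ectoderm E12.5 replicate 1. For Cdh11 it was -2.01 (SE 0.95, adjusted p = 0.27, and 0.00674 without ectoderm E11.5 replicate 1) and for Pcdh9 -3.25 (SE 0.92, adjusted p = 0.0537, and 0.0109 under the embryo block). The embryo block called 12 members, where it called 25.0 percent of all tested genes. Beside Pcdh9 these included Fat4 as given above, Cdh13 (1.18, adjusted p = 0.0446) and Cdh24 (-0.78, adjusted p = 0.00619). With the replicate number as a block, 35.4 percent of all tested genes were called in ectoderm and 51.5 percent in mesoderm. Under this block further changes between E9.5 and E12.5 were called for Pcdh1 (-0.64, adjusted p = 0.0201), Dchs1 (0.59, adjusted p = 0.0172) and Dchs2 (1.502, adjusted p = 0.0119) in ectoderm. In mesoderm they were Cdh2 (-0.86, adjusted p = 0.0206), Cdh6 (-0.78, adjusted p = 0.0323), Cdh10 (1.32, adjusted p = 0.0270), Cdh24 (0.75, adjusted p = 0.00381) and Dchs1 (0.74, adjusted p = 0.00279). These comparisons share the E9.5 and E12.5 libraries with those between layers.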

How the data were processed

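Gene counts, exon bin counts and FPKM values were analysed as the authors deposited them. The deposited counts are whole reads per gene and per exon bin, without normalization, and the deposited FPKM values are scaled by length and depth. The submitters' processing notes name cutadapt 1.16, STAR 2.6.0c, Cufflinks 2.2.1, bedtools 2.27.1 and the mm10 build; the gene counter and its use of strand are not given in the sources used here, so overlapping and antisense genes cannot be told apart. Counts were tested with edgeR 4.0.16 (R 4.3.3; TMM, a filter on low counts by group, 8 group means over 16 libraries, quasi-likelihood F test, Benjamini-Hochberg over 15501 genes, threshold 0.05). CPM were computed from the counts. Exon bins were tested for layer-dependent use with edgeR. limma 3.58.1, DESeq2 1.42.0 and other settings served as alternatives, and the gene and bin tests were tested on simulated data. Per the labels both layers of a replicate come from 1 embryo batch. Deviations of same-batch libraries correlated across genes at 0.546 to 0.666, and those of different batches at 0.432 to 0.580. Members whose call changed with the batch, or with the replicate number for changes between stages, as a block are named with the blocked value. Members named in full are the 6 highest by mean FPKM in each layer, the 5 with the largest called average difference in each direction and the 5 with the largest called interaction, and other members were named after their values were seen. Members and lists were chosen with earlier results of these data known. With 2 libraries per group, p-values rest on the spread shared by all groups.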

Additional observations from a re-analysis of the deposited data

Results flagged for a closer look

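For 8 members the E12.5 against E9.5 change was unlike in ectoderm and mesoderm by the interaction test of edgeR, and each is given as the ectoderm change minus the mesoderm change on the log2 scale. It was -3.70 for Cdh3 (adjusted p = 3.31e-04), -3.08 for Cdh4 (adjusted p = 0.00608) and -4.69 for Cdh22 (adjusted p = 0.0178), which rose in mesoderm. It was -1.74 for Celsr2 (adjusted p = 0.00332), -1.46 for Pcdh18 (adjusted p = 0.0124) and -3.79 for Pcdh19 (adjusted p = 0.00276). It was positive for Pcdh7, at 2.02 (adjusted p = 6.12e-04), and for Cdh6, at 1.56 (adjusted p = 0.0499). The size of the Cdh22 value rests on few counts, with 7 over both ectoderm libraries at E9.5 and 3 at E12.5. On log2 CPM with a prior count of 2 per library, it was -2.49 and -4.43 in replicates 1 and 2. The Cdh6 call was lost in 13 of 16 fits that left out 1 library, that of Cdh22 in 4 and that of Pcdh18 in 3.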

How the results depend on the processing

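Counts of called members stayed within 1.5 times the reported count under other size factors, other low-count filters, DESeq2 and limma on log2(FPKM + 1). A fold threshold of 2 gave 15 members at E10.5, 4 for E12.5 against E9.5 in ectoderm, 9 in mesoderm and 5 for the interaction. Leaving out 1 library at a time gave 22 to 25 members for the average, 11 to 16 for stage E9.5, 18 to 24 for stage E10.5, 12 to 18 for stage E11.5, 18 to 23 for stage E12.5, 6 to 12 in ectoderm, 12 to 19 in mesoderm, 5 to 10 for the interaction and 0 to 0 for exon bins; a group then left with 1 library was assumed to vary like the others. With a replicate block (embryo batch) 25 members were called on average, 19 for stage E9.5, 24 for stage E10.5, 23 for stage E11.5, 25 for stage E12.5 and 12 for the interaction. Of all tested genes this block called 65.9 percent on average and 25.0 percent for the interaction. The replicate number as a block called 63.9 and 23.1 percent. Directions turned only for values that had not passed the test, and the cause was not tested: the Cdh1 change in ectoderm was 0.018 with limma and -0.18 to 0.16 without 1 library, the Pcdh9 interaction was 0.22 with limma, and the average Pcdh19 difference was 0.059 in replicate 2 libraries alone, an alternative chosen after seeing the data. Members with few counts are limited by depth.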
